A study of Mus musculus with 20 samples.

Results

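The enzymes that turn farnesyl diphosphate into squalene and squalene into cholesterol were followed here in mouse intestine by the level of their transcripts. The members are 9 genes, Fdft1, Sqle, Lss, Cyp51, Tm7sf2, Nsdhl, Hsd17b7, Ebp and Dhcr7, of 25034 gene symbols on the array, and they were found by the gene name given to each probe in the scanner files, which matched 20 probes. Members were chosen by their place in the pathway, with earlier results of these data known. Intestinal tissue of 20 C57BL6/j mice was profiled on 1-colour Agilent SurePrint G3 Mouse arrays, 1 array per mouse.

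The groups were 6 Cre control, 6 BRAFV600E, 4 Vehicle and 4 MEKi arrays. Cre control mice were VillinCreER/0. They carry a Cre recombinase that tamoxifen switches on and that the Villin promoter restricts to the gut epithelium. BRAFV600E mice were VillinCreER/0/BrafV600E-LSL/+ and carried in addition a Cre-dependent allele of the mutant kinase. By the study's methods, mice of both groups were 8 to 12 weeks old and were given tamoxifen at 2 mg a day, 3 doses in all, with tissue collected 3 days later. MEKi mice received 2 tamoxifen injections followed by 3 injections of PD184352, an inhibitor of the kinase MEK directly downstream of BRAF, and Vehicle mice received the carrier in its place. For MEKi and Vehicle mice, only the study's figure legends state that they carried the mutant allele. The methods give no age for these groups by name, but state 8 to 12 weeks in general for mice with the mutant allele at induction. All 4 groups therefore received tamoxifen, but by the study's methods the number and size of the doses differed between the 2 experiments. The mutant allele is expressed only where Cre acts, whereas the arrays measured RNA of whole tissue. In such bulk samples, fewer cells of a type and less RNA per cell cannot be told apart.

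Cholesterol is built from acetyl-CoA through mevalonate and farnesyl diphosphate, and the steps from squalene onward are committed to sterols. Transcription of nearly all of these enzymes is known to be driven by SREBP2, a membrane-bound factor that is released when sterols in the endoplasmic reticulum fall, often together with NF-Y and Sp1 on the same promoters. The intestine is one of the tissues with a high rate of cholesterol synthesis.

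The promoters are shown because the enzymes are known to share their regulators. RefSeq promoter windows (build GRCm38.p6, 250 bases before to 50 bases after the annotated start site) were at hand for 7 of the 9 members, and the stretch from base -120 to base -1 before the start is printed 5′ to 3′ on the strand of the gene. Capitals mark CCAAT, which is read as ATTGG where it lies on the other strand, and the 8 letters TCACCTCA. The stretches lie at chr10:76531485-76531604 (+) for Lss, chr5:4104698-4104817 (-) for Cyp51, chr19:6067851-6067970 (-) for Tm7sf2, chrX:72918401-72918520 (+) for Nsdhl, chr1:169969206-169969325 (-) for Hsd17b7, chrX:8193513-8193632 (-) for Ebp and chr7:143830094-143830213 (+) for Dhcr7. Dhcr7 had 3 windows, of which the one with CCAAT is shown; which start site is used in these samples was not tested.
Lss: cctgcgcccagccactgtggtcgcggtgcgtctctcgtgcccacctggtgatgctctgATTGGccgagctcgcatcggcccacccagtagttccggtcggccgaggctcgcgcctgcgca
Cyp51: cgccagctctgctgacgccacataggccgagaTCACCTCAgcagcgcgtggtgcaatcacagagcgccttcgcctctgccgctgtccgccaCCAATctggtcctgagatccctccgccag
Tm7sf2: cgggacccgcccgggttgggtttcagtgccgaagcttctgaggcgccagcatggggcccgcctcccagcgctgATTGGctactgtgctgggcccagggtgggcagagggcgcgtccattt
Nsdhl: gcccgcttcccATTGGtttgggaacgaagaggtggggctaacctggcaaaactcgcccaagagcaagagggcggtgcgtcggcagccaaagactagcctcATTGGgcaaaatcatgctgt
Hsd17b7: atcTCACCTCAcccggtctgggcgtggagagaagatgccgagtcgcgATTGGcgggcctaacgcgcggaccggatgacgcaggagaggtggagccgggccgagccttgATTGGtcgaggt
Ebp: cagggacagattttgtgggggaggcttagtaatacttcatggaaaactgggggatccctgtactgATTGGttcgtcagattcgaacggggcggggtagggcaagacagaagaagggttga
Dhcr7: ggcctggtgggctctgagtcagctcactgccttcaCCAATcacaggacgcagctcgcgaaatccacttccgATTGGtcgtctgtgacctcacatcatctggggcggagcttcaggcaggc

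CCAAT was found on either strand in a window of all 7 genes, beside 41.1% of the 27025 genes with a window. The nearest match before the start began between base -62 (Lss) and base -12 (Hsd17b7). GGGCGG, the core of a GC box, was found in windows of all 7 genes as well, beside 38.2% of all genes. CCGGAA, the core of an ETS site, was found in the windows of Lss and Dhcr7, beside 16.7% of all genes. The sterol regulatory element forms TCACNCCAC and TCANNCCAC were in none of the 9 windows, beside 1.44% and 4.78% of all genes. TCACCTCA, which was added after the windows had been read, was in the windows of Cyp51 and Hsd17b7 and in those of 1.37% of all genes. A match of letters is a description of the window, and TCACNCCAC is contained in TCANNCCAC.

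**Figure D1:**
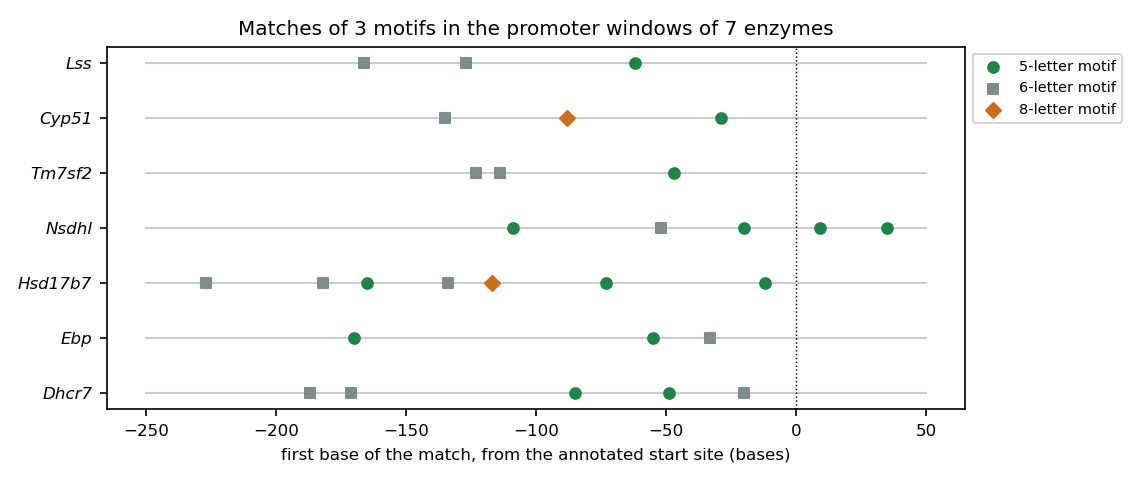
Positions of matches to CCAAT (5-letter motif), GGGCGG (6-letter motif) and TCACCTCA (8-letter motif) in the promoter windows of 7 enzymes. The x axis gives the first base of the match in bases from the annotated start site, 1 grey line per gene, and for Dhcr7 the window printed above. Each gene has at least 1 match of the 5-letter motif between base -109 and the start.

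Levels are given as the log2 processed signal of a probe minus the 75th percentile of its array, so that a difference of 1 is 2-fold, and they compare arrays for 1 probe but not probes with each other. Each gene was read by its brightest probe on average, and all 9 such probes were well above background on every array. Each comparison was fitted with limma on its own arrays over all genes measured, and genes with a two-sided p under 0.05 after Benjamini-Hochberg adjustment count as called. Between 60.8% and 76.8% of spots per array were well above background, 0 were saturated, and the 75th percentile ran from 525 to 1518. The 6 Cre control arrays shared slide 1 with BRAFV600E 1 and 2, while BRAFV600E 3 to 6 lay on slide 2, where the spike-in probes gave a slope of 0 on all 4 arrays against 0.759 to 1.08 elsewhere. MEKi and Vehicle lay on 1 slide in separate rows, so that row and treatment cannot be told apart there. Epithelial markers such as Epcam and Vil1 were well above background on every array of each group (9 of 9 markers). Vehicle 2 stood apart by exocrine pancreas markers, with a mean level of 7.52 over 6 genes against -4.28 to -2.81 on the other arrays.

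The first comparison asks what expression of the mutant kinase changes within days. All 9 enzymes had a higher mean level in BRAFV600E than in Cre control, where 48.4% of the 19041 genes tested did. The test called 6 of the 9 higher (Fdft1, Sqle, Lss, Cyp51, Tm7sf2 and Nsdhl) and 0 lower, beside 6.19% of all genes called higher and 6.27% called lower. Their median log2 fold change was 0.91, against -0.02 over all genes tested. The groups did not overlap for 5 of the 9, beside 4.19% of all genes.

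The second comparison asks which levels depend on MEK in mice with the mutant allele. All 9 enzymes had a lower mean level in MEKi than in Vehicle, where 45.4% of the 19231 genes tested did. The test called 2 of the 9 lower (Fdft1 and Lss) and 0 higher, beside 0.884% of all genes called lower and 1.09% called higher. Their median log2 fold change was -0.98, against 0.04 over all genes tested. The groups did not overlap for 5 of the 9, beside 5.76% of all genes, and those 5 (Fdft1, Sqle, Lss, Cyp51 and Nsdhl) include 3 that the test did not call.

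**Figure D2:**
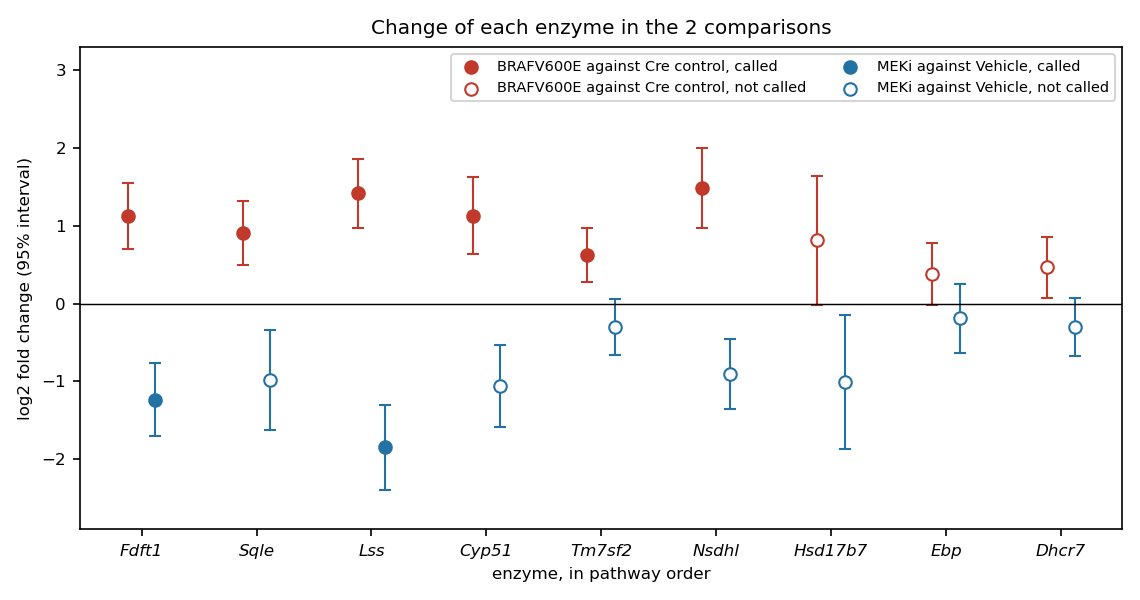
Log2 fold change of each enzyme with its 95% interval from limma, in pathway order on the x axis. Red points give BRAFV600E against Cre control (6 against 6 arrays), blue points MEKi against Vehicle (4 against 4 arrays), and filled points are called at an adjusted p under 0.05. The 9 red values lie between 0.38 and 1.49 and the 9 blue values between -1.85 and -0.19.

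Fdft1 encodes squalene synthase, which joins a pair of farnesyl diphosphate molecules and commits them to sterols. Its level ran from 1.96 to 2.57 in Cre control (median 2.29, n = 6) and from 2.73 to 3.75 in BRAFV600E (median 3.53, n = 6). Each BRAFV600E array lay above each Cre control array. The fitted difference was 1.13 ± 0.19 (SE) on the log2 scale, 2.18-fold higher, with limma's adjusted p = 0.00384. On the Vehicle arrays the level was 3.71, 3.67, 4.45 and 3.78, and on the MEKi arrays 2.96, 2.43, 2.66 and 2.63. Vehicle 3 was the highest, and each MEKi array lay below each Vehicle array. The difference was -1.24 ± 0.21, 2.36-fold lower, with limma's adjusted p = 0.0283. That call was lost (adjusted p 0.0524 to 0.0863) when MEKi 1, 2, 3 or 4 or Vehicle 1 or 4 was left out, while the difference stayed between -1.33 and -1.16. It was also lost unscaled between arrays (adjusted p = 0.109) and with the Y-linked level of each array as a covariate (adjusted p = 0.0867), within a range of 0.00569 to 0.109 over 20 alternatives.

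Sqle encodes squalene epoxidase, the oxygen-dependent and rate-limiting step after squalene. Cre control arrays held 1.64 to 2.35 (median 1.88) and BRAFV600E arrays 2.36 to 3.27 (median 2.81), so that the lowest mutant array lay just above the highest control array. The fitted difference was 0.91 ± 0.19, 1.88-fold higher, with limma's adjusted p = 0.0108. Vehicle arrays held 3.01, 2.72, 3.82 and 3.18, and MEKi arrays 2.63, 2.19, 2.34 and 1.65. The 4 MEKi arrays again lay below the 4 Vehicle arrays, with Vehicle 3 highest and MEKi 4 lowest. The difference of -0.98 ± 0.28 was not called (limma's adjusted p = 0.137).

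Lss encodes lanosterol synthase, which closes the rings of squalene epoxide to give the first sterol. Its level was -0.26 to 0.67 in Cre control (median 0.02) and 1.03 to 1.89 in BRAFV600E (median 1.56). All mutant arrays were above all controls, and the fitted difference was 1.42 ± 0.20, 2.67-fold higher, with limma's adjusted p = 0.00128. Vehicle arrays held 1.44, 1.66, 2.58 and 2.01, against 0.20, -0.03, 0.02 and 0.10 on MEKi arrays. The groups did not overlap, and the MEKi arrays lay closer together (SD 0.10) than the Vehicle arrays (SD 0.49). Lss had the largest fall among the 9 enzymes, -1.85 ± 0.24 or 3.60-fold, with limma's adjusted p = 0.0135. The call was lost without MEKi 3 (difference -1.83, adjusted p = 0.0513) and with the Y-linked covariate (-1.93, adjusted p = 0.0695), and the adjusted p ran from 0.00043 to 0.0695 over 20 alternatives.

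Cyp51 encodes the cytochrome P450 that removes a methyl group from lanosterol. Cre control arrays held 1.17 to 2.19 (median 1.66) and BRAFV600E arrays 2.07 to 3.19 (median 2.95). BRAFV600E 1, at 2.07, lay within the range of the controls and the other 5 above it. The fitted difference was 1.13 ± 0.23, 2.19-fold higher, with limma's adjusted p = 0.00934. Vehicle arrays held 3.31, 3.03, 3.60 and 2.97, and MEKi arrays 2.55, 1.64, 2.12 and 2.36, without overlap. The difference of -1.06 ± 0.23 was not called (limma's adjusted p = 0.0644). It was called in 7 of 20 alternatives, over which the adjusted p ran from 0.0186 to 0.235.

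Tm7sf2 encodes a sterol reductase that acts on the double bond left by that demethylation, a reaction it shares with Lbr. Its level was 1.81 to 2.60 in Cre control (median 2.48) and 2.72 to 3.21 in BRAFV600E (median 2.98). The groups did not overlap, and the difference of 0.63 ± 0.16, 1.54-fold higher, was the smallest of the 6 called in this comparison (limma's adjusted p = 0.0242). Vehicle arrays held 3.21, 2.82, 3.51 and 3.12, and MEKi arrays 2.79, 2.86, 2.93 and 2.89. Vehicle 2 lay inside the MEKi range, and the difference of -0.30 ± 0.16 was not called (limma's adjusted p = 0.402).

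Nsdhl and Hsd17b7 encode the dehydrogenase and the ketoreductase that work with Msmo1 to remove the remaining pair of methyl groups. Nsdhl ran from -1.48 to -0.29 in Cre control (median -0.87) and from 0.24 to 1.06 in BRAFV600E (median 0.51). The groups did not overlap, and the difference of 1.49 ± 0.24, 2.81-fold higher, was the largest among the 9 enzymes (limma's adjusted p = 0.0024). Vehicle arrays held 0.70, 0.71, 1.00 and 1.48 for Nsdhl, and MEKi arrays -0.11, 0.26, 0.12 and -0.01. These groups did not overlap either, but the difference of -0.91 ± 0.20 was not called (limma's adjusted p = 0.0623; called in 4 of 20 alternatives, 0.0184 to 0.375).

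Hsd17b7 was more scattered. Cre control arrays held -0.27 to 1.02 (median 0.37) and BRAFV600E arrays -0.37 to 2.29 (median 1.29). BRAFV600E 6, at -0.37, lay below every control, and the other 5 lay above every control. The difference of 0.81 ± 0.38 was not called (limma's adjusted p = 0.174), whereas without BRAFV600E 6 it was 1.13 and called (adjusted p = 0.0325, within 0.0146 to 0.314 over 26 alternatives). In Vehicle the level was 0.63, 0.56, 1.71 and 1.55, and in MEKi -0.25, 1.00, -0.08 and -0.24. MEKi 2 lay among the Vehicle arrays, and the difference of -1.003 ± 0.37 was not called (limma's adjusted p = 0.232).

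Ebp encodes the isomerase that moves a double bond in the sterol ring, and Dhcr7 the reductase that acts last in the branch through 7-dehydrocholesterol. Ebp held 4.33 to 5.24 in Cre control (median 4.82) and 4.85 to 5.40 in BRAFV600E (median 5.29, n = 5, since the spot of BRAFV600E 3 was marked as an outlier and left out). The ranges overlapped, and the difference of 0.38 ± 0.18 was not called (limma's adjusted p = 0.187). Vehicle arrays held 5.33, 5.72, 5.43 and 4.98 and MEKi arrays 5.32, 4.90, 5.06 and 5.44. These also overlapped, with a difference of -0.19 ± 0.19 (limma's adjusted p = 0.705) and a 95% interval from -0.63 to 0.26.

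Dhcr7 held -0.48 to 0.14 in Cre control (median -0.11) and -0.29 to 0.68 in BRAFV600E (median 0.38). The 4 mutant arrays above all controls were those of slide 2, and BRAFV600E 1 and 2, at -0.29 and -0.01, lay within the control range. The difference of 0.47 ± 0.18 was not called (limma's adjusted p = 0.104); it was called without BRAFV600E 1 (0.58, adjusted p = 0.0446, within 0.00777 to 0.937 over 26 alternatives). Vehicle arrays held 1.13, 0.85, 1.33 and 1.32 and MEKi arrays 0.89, 0.94, 0.56 and 1.04, with a difference of -0.30 ± 0.16 that was not called (limma's adjusted p = 0.412).

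**Figure D3:**
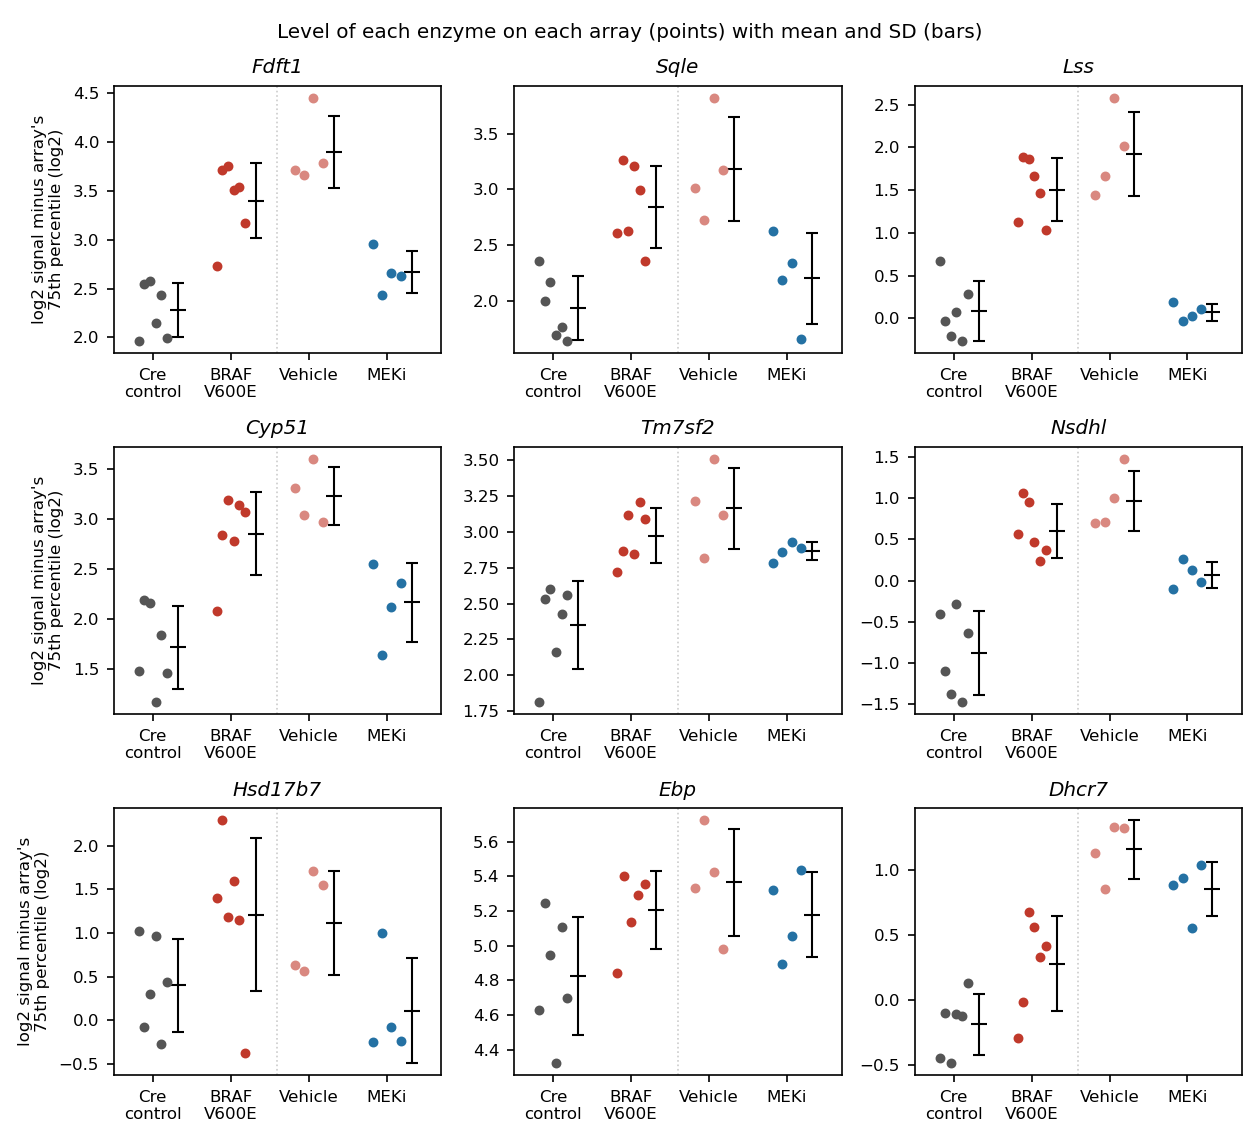
Level of each enzyme, as log2 signal minus the 75th percentile of the array, on every array (points) with the group mean and SD beside them (bars), for 6 Cre control, 6 BRAFV600E (5 for Ebp), 4 Vehicle and 4 MEKi arrays. The vertical dotted line parts the 2 experiments, which lay on different slides and are compared only within themselves. Fdft1, Sqle, Lss and Nsdhl show no overlap in either comparison, and Ebp overlaps in both.

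Slide and group partly coincide in the first comparison, so the values were also taken within slide 1 (6 Cre control and 2 BRAFV600E arrays) and with slide as a block over the 12 arrays. Both give the same difference, since slide 2 held 1 group. Within slide 1, Lss (1.42) and Nsdhl (1.69) kept their calls with limma's adjusted p of 0.0428 and 0.0436, and with the block also Sqle (1.00, adjusted p = 0.0471). Fdft1 (0.95), Cyp51 (0.74) and Tm7sf2 (0.44) were not called in either fit, with adjusted p of 0.0552, 0.142 and 0.219 with the block. Dhcr7 fell from 0.47 over all arrays to 0.03 within slide 1, whereas Hsd17b7 went from 0.81 to 1.45, not called. The count of calls among the 9 enzymes was thus 6 over all arrays, 3 with the block and 2 within slide 1, and the direction stayed higher for each enzyme. Beside these, 1179, 463 and 193 of the 19041 genes tested were called higher.

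**Figure D4:**
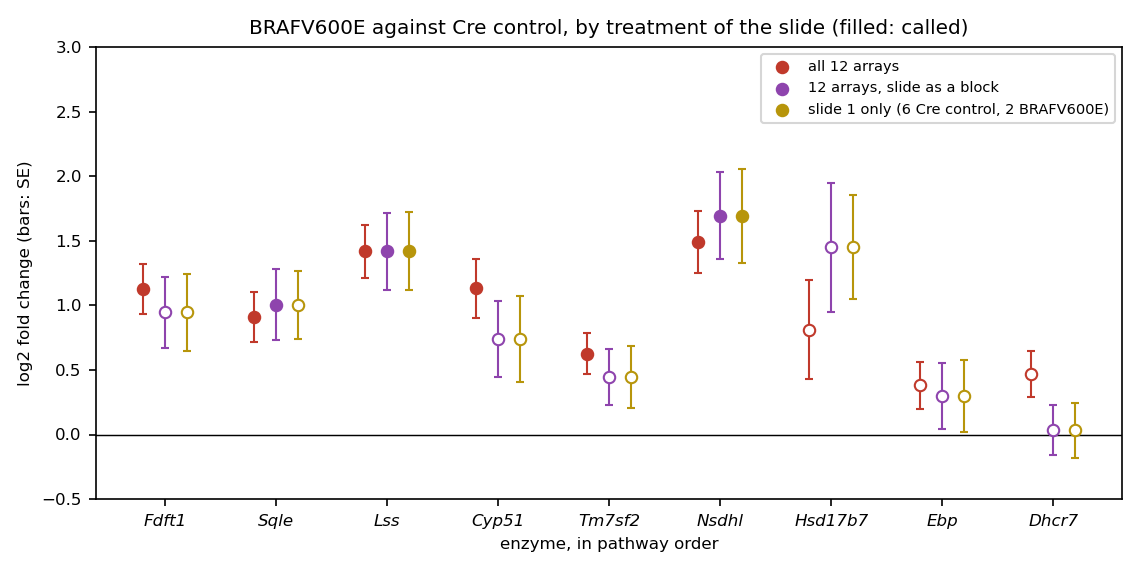
Log2 fold change of each enzyme in BRAFV600E against Cre control (y axis, bars are SE) over all 12 arrays, with slide as a block, and within slide 1 alone. Filled points are called at an adjusted p under 0.05. Lss and Nsdhl are filled throughout, and Dhcr7 moves from 0.47 to 0.03.

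Other probes of the same genes give a second reading of most steps. Of the 20 probes, 19 were tested in each comparison, and the remaining one, a Sqle probe on another transcript, was well above background on only 1 array. With each probe as its own feature, 12 of 19 were called higher and 0 lower in BRAFV600E, beside 5.12% of 38501 probes called higher. These 12 probes belonged to 8 of the 9 genes, Dhcr7 being without one. In MEKi all 19 were lower than in Vehicle and 6 of 19 were called lower, beside 0.408% of 39249 probes. The 6 were both Fdft1 probes, all 3 Lss probes and 1 Cyp51 probe.

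The probes that reach across an intron are printed because they match spliced RNA. By the mm9 positions in the files, the second Fdft1 probe spans 4241 bases of genome at chr14:63765750-63769990 (-) and the second Cyp51 probe 407 bases at chr5:4092033-4092439 (-), each with 60 bases of probe.
Fdft1: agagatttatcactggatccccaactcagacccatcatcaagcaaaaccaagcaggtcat
Cyp51: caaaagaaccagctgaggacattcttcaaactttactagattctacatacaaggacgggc

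On the Fdft1 probe across the intron, Cre control arrays held -4.10 to -0.09 (median -0.66) and BRAFV600E arrays 0.73 to 1.75 (median 1.09). The control at -4.10 was Cre control 6, which stood far from the other 5. The difference was 2.25 ± 0.56 with limma's adjusted p = 0.028, and 1.65 without Cre control 6. The call was lost without Cre control 3 or BRAFV600E 2, 3 or 4 (adjusted p 0.0502 to 0.0607), and the difference was 2.37 and not called with slide as a block (adjusted p = 0.119) and within slide 1 (adjusted p = 0.223). The same probe fell by 1.36 in MEKi (adjusted p = 0.0188). The Cyp51 probe across the intron did not overlap between groups in either comparison. It rose by 1.64 ± 0.23 in BRAFV600E (limma's adjusted p = 0.00133) and fell by 1.02 ± 0.14 in MEKi (adjusted p = 0.0214), where the probe standing for the gene was not called. The MEKi calls of these probes were lost when MEKi 1, 3 or 4 or Vehicle 3 or 4 was left out, and for Cyp51 also without Vehicle 1, with adjusted p of 0.0533 to 0.0767 for Fdft1 and 0.0575 to 0.086 for Cyp51.

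The 3 Lss probes gave differences of 1.57, 1.42 and 1.33 in BRAFV600E and of -2.02, -1.85 and -1.57 in MEKi, in the order of their position on the transcript. The last of them was not called in BRAFV600E (limma's adjusted p = 0.0536). Both Tm7sf2 probes were called higher in BRAFV600E (0.63 and 0.77) and neither was called in MEKi (-0.30 and -0.32). For Nsdhl the second probe, designed on another transcript, gave 0.99 in BRAFV600E, not called (adjusted p = 0.0999).

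Genes not called by the probe standing for them differed more between probes. Ebp had a second probe that was called higher (0.71 ± 0.20, limma's adjusted p = 0.0436), a call lost in 12 of 18 alternatives, 9 of them the removal of 1 array (0.0105 to 0.105). Hsd17b7 had one on the same transcript that was called higher (1.28 ± 0.29, adjusted p = 0.0195). The last Hsd17b7 probe and a second Dhcr7 probe, both designed on other transcripts, gave -0.31 and -0.27 in BRAFV600E and were not called (adjusted p = 0.804 and 0.506). These were the only 2 of 19 probes with a lower mean in BRAFV600E. Both signs turned to higher without scaling between arrays, where the median change of all genes was itself 0.79. The second Dhcr7 probe carried the gene's name in only 1 of the 2 versions of the array design.

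**Figure D5:**
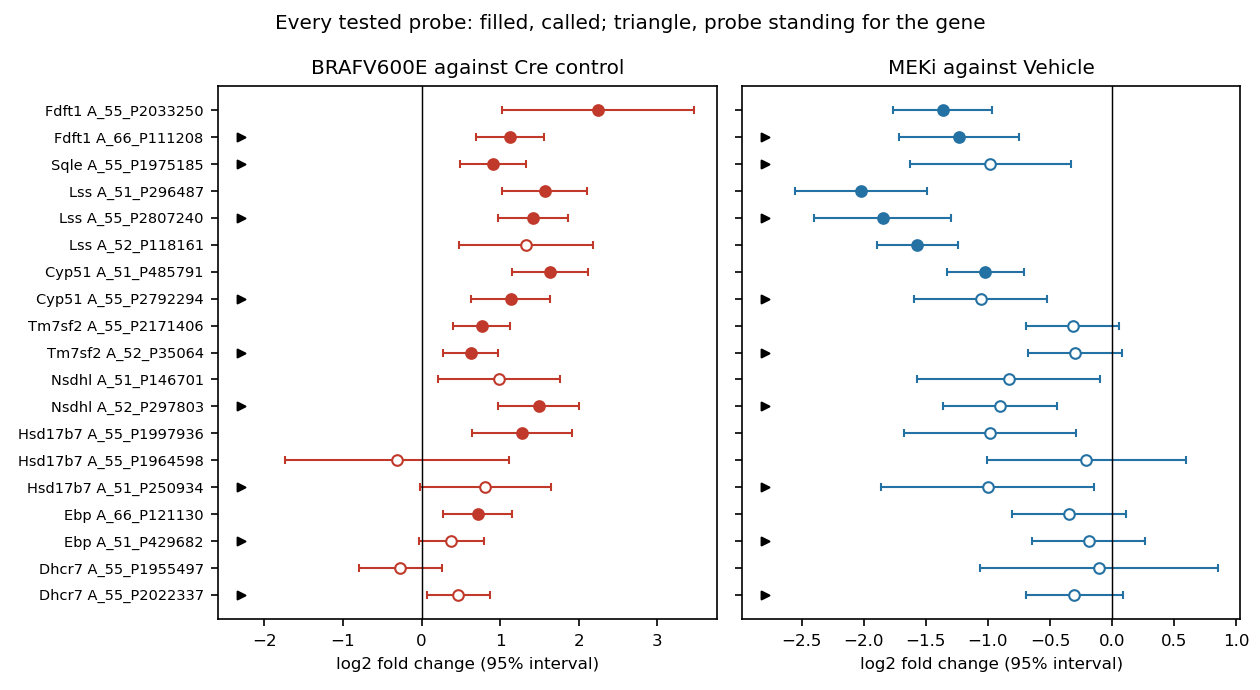
Log2 fold change with its 95% interval for each of the 19 probes tested, ordered by pathway step and then by position on the transcript. The left panel gives BRAFV600E against Cre control and the right panel MEKi against Vehicle, filled points are called at an adjusted p under 0.05 over all probes, and triangles mark the probe that stood for the gene. The filled points number 12 on the left, all above 0, and 6 on the right, all below 0.

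The size of the change differed from step to step, and 36 pairs of enzymes were compared by their difference on each array, which a constant shift of an array does not move, though quantile normalization can. None of the 36 pairs passed adjustment in BRAFV600E against Cre control by the two-sided exact permutation test, while 15 had an unadjusted p under 0.05. The lowest was for Cyp51 and Ebp, whose changes differed by 0.68 (exact p = 0.00433, adjusted p = 0.0779). Lss and Dhcr7 differed by 0.95 (exact p = 0.00649, adjusted p = 0.0779). With the mean of all tested probes of a gene in place of 1 probe, 15 pairs passed, and with another background correction (normexp) 4. In MEKi against Vehicle, 13 pairs reached an exact p of 0.0286, the smallest possible with groups of 4, which adjustment over 36 pairs took to 0.0791. Lss was a member of 6 of these 13 pairs, and fell further than its partner in each of the 6.

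The sizes of the changes were set side by side for the 2 comparisons, which share no arrays. Over the 9 genes, the difference in BRAFV600E and that in MEKi correlated with r = -0.83 (Pearson) and rho = -0.70 (Spearman), given as a description because the genes share their arrays. Lss was among the 2 largest in each and Ebp the smallest in each, whereas Nsdhl was the largest in BRAFV600E and the 6th of 9 in MEKi. With slide as a block the order in BRAFV600E changed, with Nsdhl (1.69) and Hsd17b7 (1.45) above Lss (1.42) and Dhcr7 (0.03) below Ebp (0.30). After the mean of each group was subtracted, pairs of enzymes correlated across the 12 arrays between -0.60 and 0.88 (median 0.17, 23 of 36 above 0) and across the 8 arrays between -0.82 and 0.87 (median 0.41, 27 of 36 above 0). Fdft1 and Cyp51 moved together in both sets (0.80 and 0.78), and Nsdhl and Ebp moved apart in both (-0.60 and -0.82).

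Msmo1, Sc5d and Lbr also act after squalene. Each of these 3 had a higher mean in BRAFV600E and a lower one in MEKi, with 1 of 3 called higher and 0 of 3 called lower. Msmo1, the methyl oxidase that works with Nsdhl, rose from 3.25 ± 0.31 to 4.09 ± 0.37 (SD, n = 6 each), a difference of 0.84 ± 0.20 (SE) with limma's adjusted p = 0.0182. In MEKi it stood at 3.46 ± 0.12 against 4.33 ± 0.44 (SD, n = 4 each), without overlap and not called (-0.87, adjusted p = 0.0974). Sc5d, a sterol desaturase, did not overlap between BRAFV600E and Cre control (0.84 ± 0.26, adjusted p = 0.0513) and gave -0.09 in MEKi. Lbr, which shares its reductase activity with Tm7sf2, gave 0.36 and -0.22. Neither Sc5d nor Lbr was called in either comparison.

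Of the 8 enzymes before squalene, 7 were measured, and Acat2 was not analysed here. All 7 were called higher in BRAFV600E (median 1.01), from Pmvk (0.78) to Fdps (1.57), and 4 of 7 were called lower in MEKi (median -1.05), where Mvk (-1.39) had the largest and Pmvk (-0.53) the smallest change. Of 6 genes on branches from farnesyl diphosphate, by contrast, 1 was called higher in BRAFV600E and 0 in MEKi, with medians of -0.07 and 0.06. Pdss1, for the tail of ubiquinone, was the highest at 0.73, and Ggps1, which makes geranylgeranyl diphosphate, the lowest at -1.41, not called. In MEKi Ggps1 was the highest at 0.78 and Pdss2, which works with Pdss1, the lowest at -0.56, neither called.

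Among 9 genes of sterol sensing and uptake, 5 were called higher in BRAFV600E and 0 lower. Stard4, a sterol carrier, had the smallest change there (0.03). Npc1l1, the cholesterol uptake transporter of the gut, went the other way (-0.59 and 0.79, neither called). Among 9 genes of sterol efflux and esterification, 8 had a lower mean in BRAFV600E and all 9 a higher one in MEKi. Only Abca1, an efflux transporter, was called, at -2.49 in BRAFV600E, and it stood at 0.96 in MEKi, not called.

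The check of the pathway itself used 8 genes known as ERK outputs. All 8 were called higher in BRAFV600E (median 0.93) and 5 of 8 lower in MEKi (median -1.65). Etv4 had the largest change in both, 2.50 and -2.95.

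By a fixed measure of likeness, the mean of the 9 enzymes was set against each of 18351 other genes after group means were subtracted, in the 12 and the 8 arrays separately, and genes were ordered by the lower of the 2 correlations. The leading gene was Msmo1 (0.80 and 0.90). Others among the first 10 were Bicdl1 (0.78 and 0.75), Aacs (0.74 and 0.68), Ywhae (0.67 and 0.71) and Ccnc (0.76 and 0.67). Atp2a3 (0.66 and 0.70), A530020G20Rik (0.70 and 0.65) and Hmgcs1 (0.85 and 0.65) were also among them. Of the genes named here, Msmo1, Aacs and Hmgcs1 were called higher in BRAFV600E. The arrays share their slides, and the values are a description without a test.

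Levels of other cell types moved with the groups too. Crypt proliferation markers had a higher mean in BRAFV600E for 8 of 8 genes (1 called, median 0.38), with list means of 1.22 to 1.75 in Cre control and 1.57 to 2.08 in BRAFV600E, and a lower one in MEKi for 6 of 8 (0 called, median -0.20), with list means of 1.88 to 2.49 in Vehicle and 1.77 to 2.28 in MEKi. Mki67 and Mcm5 each had values on only 5 BRAFV600E arrays, so the list means of that group do not all cover the same genes. T lymphoid markers were lower in BRAFV600E for 6 of 6 genes measured (3 called, median -0.88) and higher in MEKi for 6 of 6 (0 called, median 0.80). Their list means ran from -0.30 to 0.77 in Cre control, -1.32 to 0.17 in BRAFV600E, -1.18 to -0.35 in Vehicle and -0.54 to 0.64 in MEKi. Of the enterocyte markers, 7 of 8 were lower in BRAFV600E (0 of these called) while Alpi was called higher (1.84), and 5 of 8 were higher in MEKi (0 called, median 0.11). Their list means ran from 7.25 to 7.90 in Cre control, 5.37 to 7.64 in BRAFV600E, 6.68 to 7.76 in Vehicle and 7.25 to 7.83 in MEKi. The lowest, 5.37, was that of BRAFV600E 2, apart from the next mutant array at 6.94. On the same array the mean of the 9 enzymes was 2.59, against 1.98 to 2.42 on the other mutant arrays with all 9 values. BRAFV600E 3 had no value for Ebp and is left out of that range. Epithelial markers had a median of 0.17 in BRAFV600E, with 2 of 9 called higher (Krt18 at 0.87 and Cdh1 at 0.61) and 0 lower. In MEKi their median was -0.15 with 0 called, and Krt18 stood at -0.67 without overlap. The part of these markers in the enzymes' values was not tested.

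Smooth muscle markers had medians of 0.28 (2 of 7 called higher) and 0.67 (0 called), and B lymphoid markers -0.46 and 0.14 (0 called in either). Fat markers had a median of -0.94 in BRAFV600E (3 of 5 lower, 1 called lower, Plin1) and of 0.56 in MEKi (3 of 5 higher, 0 called), opposite in sign to the enzymes in both comparisons. Their list means ran from -1.18 to 1.32 in Cre control, -3.14 to 0.69 in BRAFV600E, -2.91 to 0.21 in Vehicle and -0.27 to 1.17 in MEKi. Cfd, a fat cell protease, differed most, by -4.34 in BRAFV600E and 6.39 in MEKi, neither called. The part of the fat markers in the enzymes' values was not tested. Liver markers stood at list means of -3.77 to -2.86 on all arrays, with 1 of 4 tested called higher and 2 lower in BRAFV600E and 0 called in MEKi, and in BRAFV600E, Vehicle and MEKi the signal of Fgb was near background throughout (0 arrays well above it). Without Vehicle 2, the array with pancreas markers, the fall of Lss and Fdft1 in MEKi was called as before. Y-linked genes were high (list means of -1.30 to -0.99) on Cre control 1 to 3 and BRAFV600E 1 to 3 and 6. They were low (-6.22 to -4.92) on the other Cre control and BRAFV600E arrays. The study's methods state equal numbers of males and females in these groups. In the second experiment the same genes were high (-1.29 to -0.96) on all 4 MEKi arrays and on Vehicle 1 and 3. They were low (-5.94 and -6.25) on Vehicle 2 and 4. With that level as a covariate, 0 of the 9 enzymes and 53 of all genes tested were called in MEKi against Vehicle. All 9 enzymes remained lower.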

How the data were processed

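RNA of mouse intestine was hybridised to 1-colour Agilent arrays, and per the file headers the authors extracted each scan with Agilent Feature Extraction (version 10.5.1.1 in the submitters' processing notes), which subtracts background and writes a processed intensity per spot. This deposited intensity is linear and not normalized between arrays; the deposited series matrix held the same values (100% of spots within 0.5%). The deposited files also give 0 or 1 marks per spot (well above background, outlier, saturated), another kind of value, used as filters.

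Control spots (3671 of 62976) and outlier spots were left out, and log2 of the intensity minus each array's 75th percentile was averaged over copies of a probe. Probes were named through a RefSeq gene table (GRCm38.p6, names only): an accession named 34023 of them, a symbol 9993 and an older synonym 318, while 12271 stayed unnamed and were not tested. Probe coordinates are those of the files (mm9). A gene was read by its probe with the highest mean over 20 arrays and tested when 6 of 12 or 4 of 8 arrays, or more, showed that probe well above background. Each comparison was fitted without covariates in limma (version 3.58.1, R 4.3.3; lmFit and eBayes), which the study's methods name, with Benjamini-Hochberg adjustment over all genes tested. Of 19041 and 19231 genes tested, 2372 and 380 were called, and 5738 and 3154 had an unadjusted p under 0.05. The fit was tested on simulated data.

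Groups came from the labels; a treatment text that is the same for all 20 samples and describes a statin matches none of the groups and was not used. Replicate numbers only name arrays. No 2 arrays held identical values (0 pairs). The number of arrays limits the precision, and p-values weigh a group difference against the spread between arrays within groups. That spread also holds the slide within BRAFV600E and the Y-linked level where these differ.

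The members and lists were chosen with earlier results of these data known. The text names all members, every tested gene among the other enzymes after squalene, the largest and smallest change of other pathway lists, and the 10 genes most alike, apart from a few genes that are not reported here. Alternatives tried were normexp background (offset 50), quantile, median and no scaling, filters on dim probes, other probes, array weights, Y-linked level, slide, 1 fit of 20 arrays, and leaving out each array. The comparison of pairs of enzymes was added after the data were seen.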

Additional observations from a re-analysis of the deposited data

Results flagged for a closer look

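Of 76 sets of values (19 probes in 4 groups), 7 held an array whose gap to the nearest other exceeded Dixon's 95% critical value, where chance gives about 1 in 20. For probes standing for a gene these were Hsd17b7 on MEKi 2 (0.999, nearest -0.08), Cyp51 on BRAFV600E 1 (2.07, nearest 2.78) and Fdft1 on Vehicle 3 (4.45, nearest 3.78).

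For other probes they were Fdft1 across the intron on Cre control 6 (-4.10, nearest -0.70), Tm7sf2 on Cre control 1 (-0.91, nearest -0.36), Ebp on BRAFV600E 2 (2.68, nearest 1.89) and Dhcr7 on MEKi 3 (-3.89, nearest -3.12).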

How the results depend on the processing

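Direction held for each of the 9 enzymes under each of 26 alternatives in BRAFV600E against Cre control (234 values) and 20 in MEKi against Vehicle (180 values). Several alternatives cannot move a difference. The filters on dim probes, each probe as its own feature and 1 fit of all 20 arrays changed only its error. The block and slide 1 gave the same difference, and leaving out scaling raised genes in general in the first comparison. These values are thus not independent checks. Counts of called enzymes (6 and 2) were 3 with slide as a block, 2 within slide 1, 9 unscaled between arrays and 7 with normexp background, array weights or the mean of all probes in the first. In the second they were 3 with quantile normalization or the mean of all probes, 4 with normexp background, with normexp and quantile, with probes well above background on every array and in 1 fit of all 20 arrays, 5 with array weights, 1 unscaled between arrays and 0 with the Y-linked level as a covariate. Unscaled, 9164 of the 19041 genes tested were called higher in the first, and with that covariate 53 genes were called in the second. Leaving out 1 array gave 6 to 7 and 0 to 2 called enzymes. In the second comparison the count was 0 without MEKi 3 and 1 without MEKi 1, 2 or 4 or Vehicle 1 or 4. The cause of these shifts was not tested.

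Genes called (2372) were 4648 with normexp background, 9340 unscaled (98.1% higher, 0.79 median shift of all genes), 3591 with each probe as its own feature (a count of probes), 3747 with array weights, 1533 with slide as a block and 734 within slide 1, and 1441 to 2863 without 1 array. Of the calls, 49.7% were higher, against 34.3% with normexp background, 73.7% with median scaling (0.11 shift of the median of all genes), 30.2% with the block and 26.3% within slide 1. In MEKi against Vehicle 380 became 74 unscaled, 234 without a filter on dim probes (more genes tested), 1230 with array weights, 53 with the Y-linked covariate and 76 to 376 without 1 array. Probes called among the members (12 and 6) were 6 with the block and 3 within slide 1, and 1 unscaled and 0 with the Y-linked covariate, and without 1 array 9 to 13 and 1 to 5. Pairs of enzymes called (0) were 4 with normexp background, 15 with the mean of all probes and 0 to 0 without 1 array.

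The uncalled probes of Hsd17b7 and Dhcr7 on other transcripts changed sign. Hsd17b7 went to 0.45 unscaled and to 0.13 without Cre control 5 (-0.77 to 0.13 without 1 array), and in MEKi to 0.039 without MEKi 3 (-0.39 to 0.039). Dhcr7 went to 0.54 unscaled, and in MEKi to 0.09 without MEKi 3 and 0.31 without Vehicle 3 (-0.31 to 0.31 without 1 array). No paired analysis was possible because the labels give animal numbers that pair no mice across groups.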
